A study of Mus musculus with 2 samples.

Results

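The genes that encode the subunits of the proteasome were followed in blood stem and progenitor cells of tumour-bearing mice. Members were all protein-coding mouse genes whose symbol begins with Psma, Psmb, Psmc, Psmd or Psme and a digit, apart from Psmb8, Psmb9 and Psmb10, the interferon-inducible catalytic subunits, which serve here as a comparison. The rule used no measured value and gave 42 of the 31053 genes in the count tables. Of these, 39 were measured, that is, had a mean of at least 10 CPM (unique molecular identifiers, UMIs, per 1000000 UMIs of the library) over both libraries. Psma8 (3.89 CPM in the bone marrow library and 3.25 CPM in the spleen library) and Psme2b (6.48 and 8.41 CPM) lay under that limit, and Psmb11, the thymic catalytic subunit, had 6 and 1 UMIs. Psmc3ip is taken by the symbol rule although it encodes a partner of meiotic recombination proteins and no proteasome subunit, and it is described apart.

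The cells were LSK cells, which carry little or no lineage marker, carry Sca1 and have high c-Kit, the sort gate for blood stem cells and early progenitors. They came from C57BL/6 mice given Hepa1-6 hepatoma cells in the left liver lobe at 6–8 weeks of age, and both groups share that tumour. The bone marrow gave 1 library (10088 cells, 73740963 UMIs, median 5991 per cell) and the spleen 1 library (6546 cells, 85937174 UMIs, median 9978 per cell). Mice without a tumour were not analysed here, the number of mice behind a library is not stated, and enrichment on beads was by lineage depletion or by CD117 without a statement of which was used for which tissue. With 1 library per group there was no test, and intervals (95%) cover counting error alone. Tissue and library cannot be told apart. The libraries shared 16 barcodes, 0.159% of the bone marrow cells and 0.244% of the spleen cells. Both genes of the gate were present in each library (summed Kit and Ly6a 343 CPM in bone marrow, 306 CPM in spleen), although in the cluster MEP of each library only 1 of the 2 reached 10 CPM. By the deposited mouse atlas labels, 1.11% of the bone marrow cells and 52.1% of the spleen cells were dendritic, T, NK, innate lymphoid, B, mast or basophil cells, although the sort was for LSK cells.

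The proteasome degrades proteins tagged with ubiquitin. Its core particle is a barrel of outer alpha rings, which gate the entry, and inner beta rings, which hold the protease sites. The regulatory particle on its end has a base, with a ring of ATPases that unfold and thread substrates, and a lid that removes ubiquitin, while alternative activators (the Psme genes) open the gate without ubiquitin. In immune and interferon-exposed cells Psmb8, Psmb9 and Psmb10 replace the standard catalytic subunits Psmb5, Psmb6 and Psmb7. When proteasome activity is short, the transcription factor Nfe2l1 is known to raise many subunit genes through antioxidant response elements in their promoters.

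To show such an element in these genes, the core TGACNNNGC was searched on both strands from 250 bases before to 50 bases after the gene start (RefSeq, GRCm38.p6), where N is any base. A window was matched for 35 of the 42 members, and 6 of the 35 (17.1%) held the core, in Psmb5, Psmb6, Psmc6, Psmd12, Psmd9 and Psme4. Over all 27025 genes with a window the share was 14%, so the members' share was near that of all promoters. Psmb8, Psmb9 and Psmb10 all had a window and none held the core. The stretches upstream of the start follow for the 3 members whose match had 16 upstream bases on either side, written 5′ to 3′ on the gene's strand, with the matched bases in capitals. They lie at chr14:54618018-54618058 (minus strand, match 47 bases before the start), chr14:45329581-45329621 (plus strand, 227 bases before, on the opposite strand to the gene) and chr5:123228143-123228183 (plus strand, 31 bases before).
Psmb5: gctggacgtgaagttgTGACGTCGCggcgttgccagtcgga
Psmc6: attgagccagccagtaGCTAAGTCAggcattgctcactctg
Psmd9: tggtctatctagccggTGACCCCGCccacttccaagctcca
These matches are letters in a window and no measured binding sites.

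Over all cells the members together made up 4772 CPM in bone marrow (4757 to 4788) and 6866 CPM in spleen (6848 to 6883), a ratio of 1.44 (1.43 to 1.44). Of the 39 measured members, 38 were higher in spleen and Psme4 alone was lower, with TMM scaling and centring on the median gene too. Under other choices of cells more members were below 1, as given with the clusters and the depth bands. Their median log2 ratio, on CPM + 1, was 0.47, against -0.11 over the 8644 genes measured alike. At least 1.5-fold higher in spleen were 10 of 39 members, where 10.8% of all measured genes were that much higher, and 0 of 39 were at least 1.5-fold lower, where 18.3% of genes were. At a lower limit, a log2 ratio of 0.32, 32 members were higher (21.4% of genes) and 1 was lower (33.8% of genes). With TMM scaling (trimmed mean of M-values), which moves the median of all genes from -0.11 to 0.10, 29 members were at least 1.5-fold higher and 0 lower, where 18.7% and 10.7% of all genes were. The plot of members by role shows the same shift in nearly every pair of points. In pooled cells of a library, more cells of a type and more RNA per cell of that type cannot be told apart. UMIs of a 3′ assay count transcript ends and were not scaled by length, so the levels of different genes are not ranked.

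**Figure D1:**
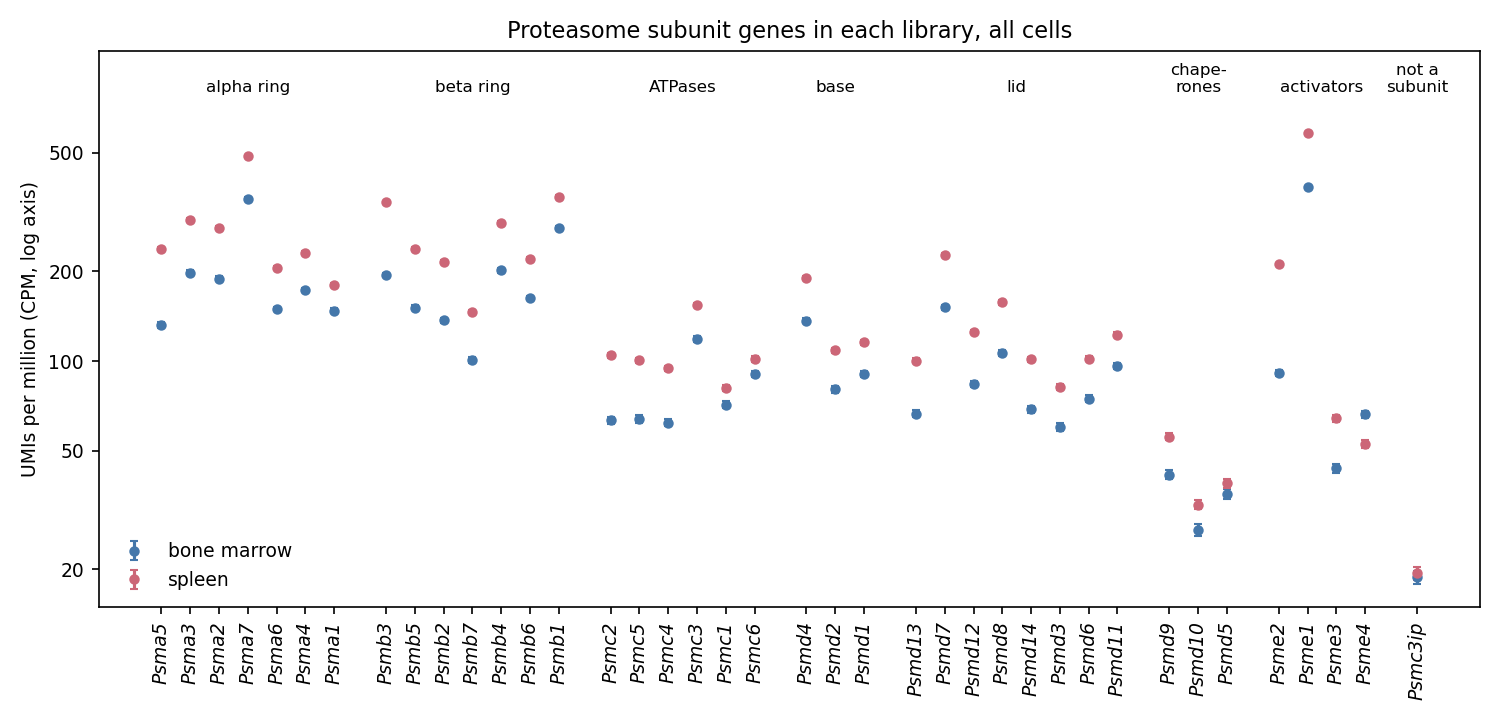
Level of each of the 39 measured members (points, CPM on a log axis) in the bone marrow and spleen libraries over all cells, grouped by role and ordered by log2 ratio, with exact 95% Poisson intervals. The spleen point is above the bone marrow point for 38 members and below it for Psme4.

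In the alpha rings, 7 of 8 genes were measured and their summed level was 1.43-fold higher in spleen (1.42 to 1.44). Psma5 stood at 132 CPM in bone marrow and 238 CPM in spleen, the widest gap of the group (ratio 1.80, 1.76 to 1.84). Psma3 followed with 198 and 298 CPM (1.51, 1.48 to 1.54). At the low end were Psma1, with 147 and 180 CPM (1.22, 1.191 to 1.251), and Psma4, with 173 and 230 CPM (1.33, 1.30 to 1.36). Psma2, Psma6 and Psma7 had ratios of 1.48, 1.38 and 1.39. So all 7 were higher in spleen, and 2 of them by at least 1.5-fold.

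In the beta rings, 7 of 8 genes were measured, and their sum was 1.47-fold higher in spleen (1.46 to 1.48), with 3 of 7 past 1.5-fold. The catalytic subunit Psmb5, which carries the chymotrypsin-like site, measured 151 CPM in bone marrow and 237 CPM in spleen (ratio 1.57, 1.54 to 1.61). Psmb6, with the caspase-like site, measured 163 and 221 CPM (1.35, 1.32 to 1.39). Psmb7, with the trypsin-like site, measured 101 and 146 CPM (1.45, 1.41 to 1.5). The catalytic genes thus all pointed the same way, with Psmb5 furthest apart. Among the structural subunits, Psmb3 had the widest gap, 194 and 341 CPM (1.75, 1.72 to 1.79), and Psmb1 the narrowest, 281 and 356 CPM (1.27, 1.248 to 1.293). Psmb2 and Psmb4 had ratios of 1.57 and 1.44.

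The ATPases of the base summed to 470 CPM in bone marrow and 637 CPM in spleen (ratio 1.36, 1.34 to 1.37) and lay in 2 sets by size. Psmc2 (63.3 and 104 CPM, ratio 1.65, 1.59 to 1.71), Psmc5 (63.9 and 101 CPM, 1.57, 1.52 to 1.63) and Psmc4 (ratio 1.52) were past 1.5-fold. Psmc6 (90.3 and 102 CPM, 1.12, 1.09 to 1.16) and Psmc1 (71.5 and 81.4 CPM, 1.14, 1.10 to 1.18) were close to level, and Psmc3 lay between them at 1.30. These sets were made after the values were seen.

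The scaffold and receptor genes of the base were all higher in spleen and none passed 1.5-fold. Psmd4, a ubiquitin receptor, measured 136 CPM in bone marrow and 190 CPM in spleen (ratio 1.39, 1.36 to 1.43). The large scaffold proteins Psmd2 (80.4 and 109 CPM, ratio 1.35, 1.31 to 1.40) and Psmd1 (90.3 and 116 CPM, ratio 1.28, 1.24 to 1.32) were slightly less apart. The 8 lid genes had a summed ratio of 1.44 (1.42 to 1.45). Psmd13, at 66.7 and 100 CPM (1.51, 1.45 to 1.56), came just short of 1.5-fold once 1 CPM was added. Psmd7, at 152 and 227 CPM (1.496, 1.46 to 1.53), was just short of it without that addition too. Psmd14, the deubiquitinase of the lid, measured 69.0 and 101 CPM (1.47, 1.42 to 1.52). Psmd11 (96.2 and 122 CPM, 1.27, 1.23 to 1.31) was the lowest, followed by Psmd6 (74.9 and 102 CPM, 1.36, 1.32 to 1.41) and Psmd3 (1.36). Psmd8 and Psmd12 had ratios of 1.48 and 1.49.

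The base assembly chaperones, which help build the ATPase ring and leave the finished particle, were nearer to level, with a summed ratio of 1.22 (1.19 to 1.26). Psmd5 measured 35.8 CPM in bone marrow and 39.0 CPM in spleen (1.09, 1.03 to 1.15), Psmd10 27.1 and 33.0 CPM (1.22, 1.15 to 1.29), and Psmd9 41.5 and 55.8 CPM (1.34, 1.28 to 1.41). None reached 1.5-fold.

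The activators were the least uniform group, and they held both the highest and the lowest ratio of all members. Psme2 (chr14:55587441-55591113, mm10), a subunit of the interferon-inducible activator, measured 91.2 CPM in bone marrow (89.1 to 93.4) and 211 CPM in spleen (208 to 214), a ratio of 2.31 (2.25 to 2.38). Its partner Psme1 (chr14:55578123-55581529) measured 384 and 583 CPM (1.52, 1.5 to 1.54). Psme3, the nuclear activator, measured 43.7 and 64.2 CPM (1.47, 1.41 to 1.54). Psme4 (chr11:30771726-30880361), a single-chain activator, measured 66.4 CPM in bone marrow (64.5 to 68.3) and 52.6 CPM in spleen (51.1 to 54.2), so it was 1.26-fold lower in spleen. Psme2b is a near copy of Psme2: of its 747 windows of 91 transcript bases, 411 (55%) also occur in a Psme2 transcript, so the counts of both are uncertain where reads could be split. Psmc3ip was level over pooled cells, at 18.8 CPM (17.8 to 19.8) and 19.4 CPM (18.5 to 20.3).

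The 2 libraries differ in which cells they hold, so the sum was read within the authors' deposited clusters that had at least 100 cells in both (7 of 8, named as deposited). It was higher in spleen in all 7. The markers go against some of these names. In bone marrow the granulocyte markers summed to 6014 CPM and the stem-cell markers to 865 CPM in HSC-2. In spleen the dendritic and antigen-presenting markers summed to 10326 CPM in HSC-1 and 10642 CPM in HSC-3, against 1177 and 512 CPM for stem-cell markers. In DCP these dendritic markers summed to 435 CPM in bone marrow and 36286 CPM in spleen, and mitosis markers to 5068 and 4376 CPM. In LP the T, NK or innate lymphoid markers summed to 162 CPM in bone marrow and 4361 CPM in spleen. Cells under the names DCP and LP thus differed in markers between the libraries. The granulocyte sum over all cells was 2241 CPM in bone marrow and 223 CPM in spleen. The part of granulocyte RNA in the results was not tested. The clusters HSC-1, HSC-2 and HSC-3 had 4146, 5318 and 4898 CPM in bone marrow and 5122, 5867 and 5813 CPM in spleen, ratios of 1.24 (1.223 to 1.248), 1.10 (1.09 to 1.11) and 1.19 (1.17 to 1.20). MEP (summed erythroid markers 2736 CPM in bone marrow and 3738 CPM in spleen, with 6 of 8 markers at 10 CPM or more in each) had 6194 and 8701 CPM (1.40, 1.39 to 1.42). LP, MP and DCP had 4389, 5060 and 4718 CPM in bone marrow and 5443, 6345 and 6376 CPM in spleen, ratios of 1.24 (1.22 to 1.26), 1.254 (1.219 to 1.291) and 1.35 (1.33 to 1.38). MEP held 3.54% of the bone marrow cells and 13.6% of the spleen cells. Pooled CPM weights cells by their UMIs, and MEP held more of these in spleen. Of the member UMIs, 26000 of 351919 were from MEP in bone marrow and 275199 of 590039 in spleen. Without MEP the all-cell ratio was 1.24 (1.23 to 1.24), with 2 members at least 1.5-fold higher, where 8.35% of genes were, and 11 of 39 below 1. With clusters weighted alike it was 1.22, with 1 member higher, where 4.72% of genes were, and 5 of 39 below 1. Both counts of higher members lie below the share of all genes.

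**Figure D2:**
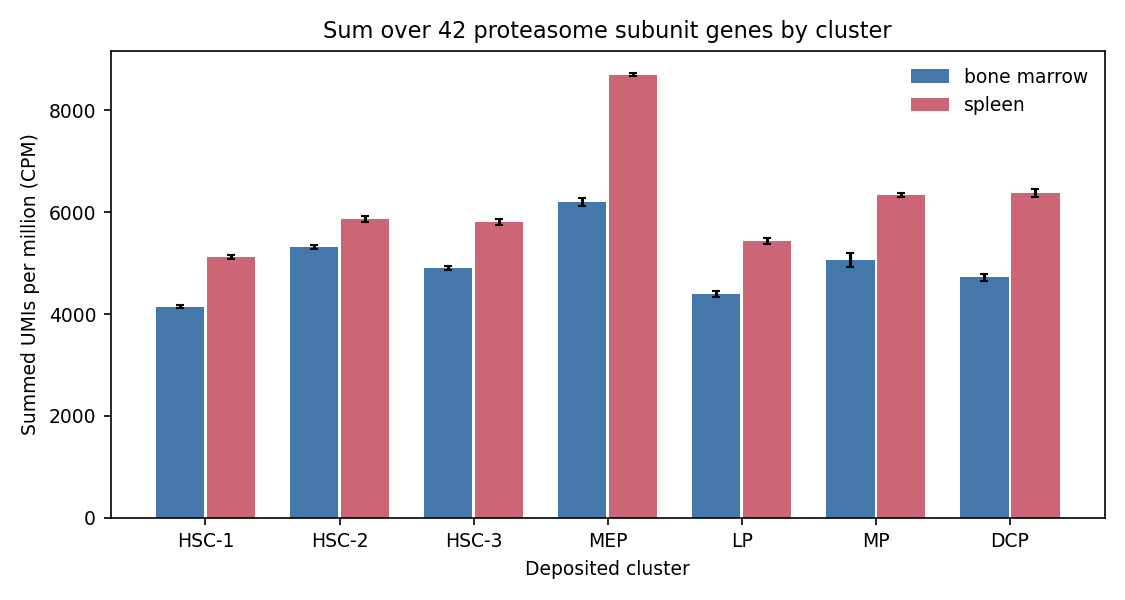
Summed CPM of the 42 members in each deposited cluster (bars from 0, exact 95% Poisson intervals), bone marrow beside spleen. Spleen is above bone marrow in all 7 clusters, and MEP has the highest bar in each library, 6194 and 8701 CPM.

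Counting members cluster by cluster gave few large differences outside MEP. In HSC-1, 2 of 38 measured members were at least 1.5-fold higher in spleen (4.96% of genes) and 0 lower (5.48% of genes). The 2 were Psme2, at 67.4 CPM in bone marrow and 141 CPM in spleen (ratio 2.09, 1.95 to 2.24), and Psmd8, at 91.3 and 139 CPM (1.52, 1.43 to 1.63). Lowest there were Psme4 (71.5 and 52.2 CPM, ratio 0.73, 0.66 to 0.80) and Psmd5 (34.1 and 26.0 CPM, 0.76, 0.66 to 0.87). In HSC-2, 0 of 39 were higher (1.67% of genes) and 0 lower (2.77%). Its extremes were Psmd8 (119 and 162 CPM, 1.35, 1.27 to 1.45) and Psme2 (1.249) above, and Psme4 (62.4 and 49.4 CPM, 0.79, 0.71 to 0.88) and Psmd1 (0.87) below. In HSC-3, 1 of 39 was higher (5.77% of genes), Psme2 at 88.1 and 158 CPM (1.79, 1.65 to 1.95), and 0 lower (8.77%). Psma5 came next (1.37), while Psme4 (59.7 and 45.2 CPM, 0.76, 0.66 to 0.87) and Psmd5 (0.84) were lowest.

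In MEP, 11 of 39 members were at least 1.5-fold higher in spleen, against 7.46% of genes, and 1 lower, against 13.5% of genes. The higher members were Psma1, Psma5, Psmb2, Psmb3, Psmb5, Psmb6, Psmc2, Psmc5, Psmd8, Psmd12 and Psme2. Psma5 led with 195 CPM in bone marrow and 335 CPM in spleen (ratio 1.72, 1.60 to 1.85), followed by Psmb2 with 173 and 293 CPM (1.69, 1.57 to 1.83). The lower member was Psme4, at 76.7 and 50.5 CPM (0.66, 0.58 to 0.74). Psme3, at 107 and 110 CPM (1.03, 0.93 to 1.14), was level. On CPM the core sum was furthest apart in MEP, but with TMM scaling it was further apart in MP (1.78, against 1.71 in MEP), and centred on the median gene in DCP and MP (1.57 and 1.55, against 1.49). MEP was also the cluster with a wide gap in depth, with a median of 11230 UMIs per cell in bone marrow and 36084 in spleen.

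In LP, 3 of 38 members were higher (8.9% of genes), Psmc2 (50.1 and 82.8 CPM, ratio 1.65, 1.42 to 1.93), Psme2 (82.5 and 131 CPM, 1.59, 1.41 to 1.79) and Psmd8, and 0 lower (10.7%). Psme4 (0.91, 0.78 to 1.07) and Psmd7 (1.03, 0.92 to 1.14) were lowest there and had intervals that include 1. In MP, 5 of 39 were higher (8.03% of genes), Psma5, Psmb2, Psmb5, Psme1 and Psme2, and 2 lower (29.7%), Psmc1 and Psmd5. Psme2 measured 179 and 333 CPM (1.86, 1.60 to 2.17) and Psma5 118 and 210 CPM (1.78, 1.48 to 2.17), against 64.9 and 40.3 CPM for Psmc1 (0.62, 0.48 to 0.82) and 28.4 and 17.8 CPM for Psmd5 (0.63, 0.43 to 0.96). In DCP, 5 of 39 were higher (13.7% of genes), Psma3, Psmd8, Psme1, Psme2 and Psme2b, and 1 lower (32.5%). Psme2 measured 79.4 and 289 CPM there (3.64, 3.2 to 4.15) and Psme1 332 and 801 CPM (2.42, 2.26 to 2.58). Psmd5 was the lower member, at 37.0 and 20.6 CPM (0.56, 0.42 to 0.73), and Psmc1 followed (0.80, 0.69 to 0.93). Outside MEP the members' higher counts were thus near or below the share of all genes, with MP the furthest above it.

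The core and the regulatory particle differed in the size of the gap between the libraries in some clusters and not in others. All 14 measured core genes, the alpha and beta subunits, had a ratio above 1 in each of the 7 clusters. In all, 13 members had an interval above 1 in each of them, 10 of these being core genes and the others Psmd13, Psme1 and Psme2. The share of all genes with such ratios was not counted. At 5000 to 10000 UMIs only 11 of the 14 core genes were above 1 in HSC-2 and in LP, 9 in HSC-3 and 8 in MEP. At 10000 to 20000 UMIs 11 were in HSC-2, 10 in MEP and 13 in DCP. Without cells of other labels 12 were in DCP. Over all cells of a cluster, 17 of the 17 base and lid genes had a ratio above 1 in MEP and in LP, 11 in DCP and 5 in MP. In MP the core sum was 1.31-fold higher in spleen (1.253 to 1.359), while the base and lid sum had a ratio of 0.94 (0.895 to 0.997) that turned to 1.29 with TMM scaling and to 1.12 when centred on the median gene, where the core had 1.78 and 1.55. The direction of the base and lid in MP thus rests on the scaling, whereas their place below the core does not, since a scaling moves both by the same factor. In DCP the sums had ratios of 1.31 (1.27 to 1.34) and 1.13 (1.09 to 1.17). In HSC-1 they were 1.24 (1.225 to 1.26) and 1.16 (1.14 to 1.18), and in MEP 1.47 (1.45 to 1.5) and 1.39 (1.36 to 1.42). In HSC-2 (1.11 and 1.09) and HSC-3 (1.19 and 1.15) their intervals overlapped. Without cells of other labels the order over all cells turned, with 1.58 for the core and 1.61 for the base and lid, and in DCP the sums were closer, 1.14 (1.09 to 1.20) and 1.10 (1.03 to 1.17). In HSC-3 they were then 1.22 and 1.23, while MP kept 1.33 and 0.88. In LP they were alike, 1.246 (1.217 to 1.275) and 1.26 (1.23 to 1.30). Psme4 was the 1 member whose ratio was below 1 in all 7 clusters, with its interval below 1 in 5, but with TMM scaling it was above 1 in MP (1.05) and DCP (1.13) and, centred on the median gene, in DCP (1.05). The map of members by cluster shows this as blue cells in the lower rows of MP and DCP, and as a blue row for Psme4.

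**Figure D3:**
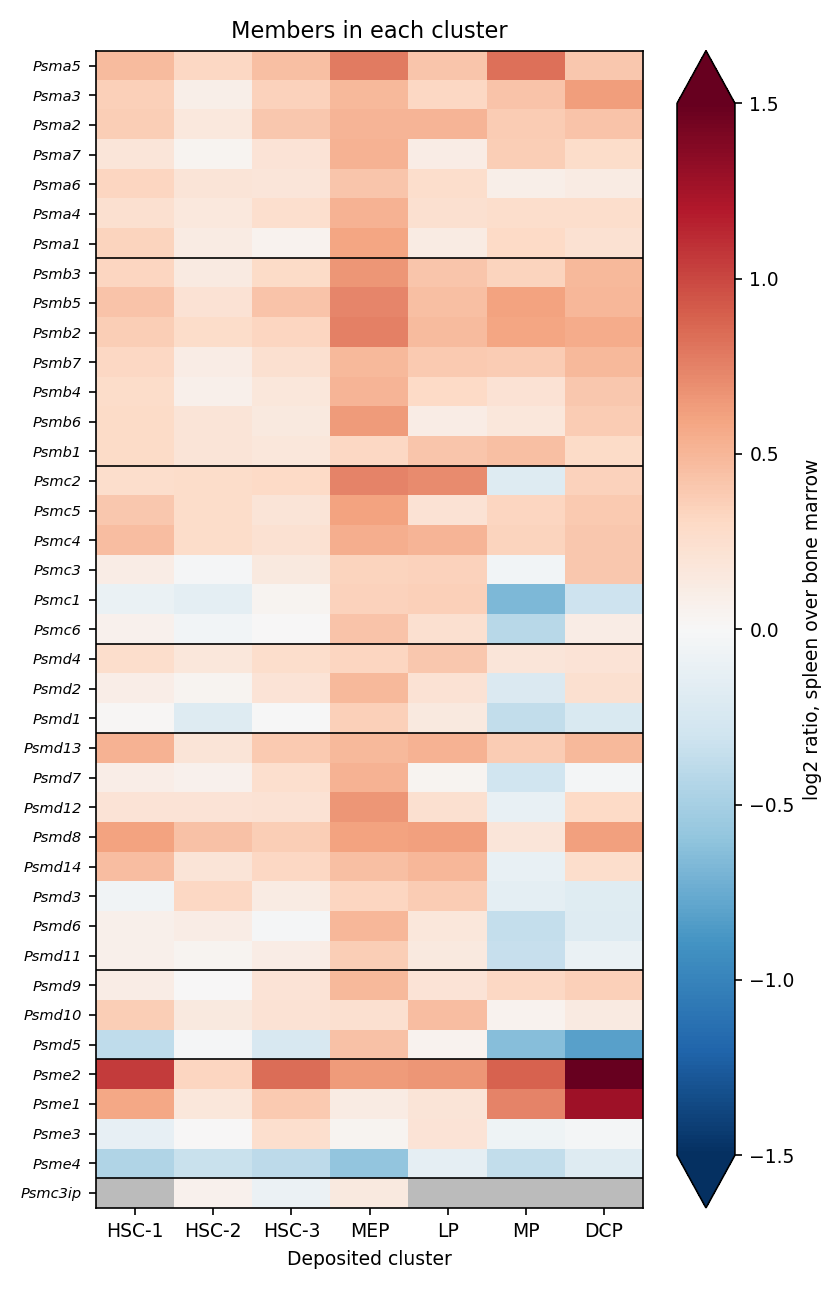
Log2 ratio of spleen over bone marrow (colour, on CPM + 1, scale ending at 1.5 in either direction) of each measured member in each of 7 clusters, with lines between the role groups in the order alpha ring, beta ring, ATPases, other base, lid, chaperones, activators and Psmc3ip. Grey marks under 10 CPM on average. The 14 ring genes at the top are above 0 in every column, and Psme4 is below 0 in every column on this scale, which is not so for MP and DCP with TMM scaling.

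Over all cells of a library the sum was higher in deeper cells, but not within every cluster. From band to band it rose within HSC-1, HSC-2 and MEP of each library. It did not rise at each step within DCP or MP of either, nor within HSC-3 and LP of bone marrow. In bone marrow as a whole it was 4065 CPM in cells under 5000 UMIs, 4548 CPM at 5000 to 10000, 5285 CPM at 10000 to 20000 and 6117 CPM at 20000 to 40000 UMIs, and in spleen 4205, 5244, 6095 and 7759 CPM. Spleen cells were deeper, so libraries were also compared among cells of like depth, a comparison chosen after seeing the data. The all-cell ratio was then 1.15 in both bands, 1.15 (1.14 to 1.16) at 5000 to 10000 UMIs and 1.15 (1.15 to 1.16) at 10000 to 20000, with 2 members at least 1.5-fold higher (Psme1 and Psme2) and 1 lower (Psmc3ip, no proteasome subunit) in each. The shares of all genes were 6.87% higher and 9.66% lower in the first band and 9.15% and 16.1% in the second, so the members' share was below that of all genes in either direction. Below 1 were 13 of the 39 members in the first band and 15 in the second. Over all cells of a band the core and regulatory genes differed, but not in every cluster. The core sum had ratios of 1.15 (1.14 to 1.16) and 1.13 (1.12 to 1.14), the base and lid sum had 1.03 (1.02 to 1.05) and 0.98 (0.97 to 0.99), and Psme1 with Psme2 had 1.66 (1.63 to 1.70) and 1.97 (1.93 to 2.01). Within clusters, LP had 1.13 for the core and 1.16 for the base and lid in the lower band and 1.41 and 1.45 in the upper. HSC-2 had 1.03 and 1.04 in the upper, and MEP had 1.00 and 0.99 in the lower. In the upper band MEP had 1.05 (1.01 to 1.09) for the core and 0.89 (0.84 to 0.93) for the base and lid. Whether depth reflects larger cells, cell state or capture was not tested.

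In MEP the sum over all members did not differ beyond counting error between the libraries from 5000 to 20000 UMIs per cell. It differed above, where depth was not matched. At 5000 to 10000 UMIs the sum was 4900 CPM in 100 bone marrow cells and 4907 CPM in 48 spleen cells (ratio 1.00, 0.95 to 1.06). At 10000 to 20000 UMIs it was 6203 CPM in 136 cells and 6170 CPM in 105 cells (0.995, 0.97 to 1.02), with 16 of 39 members above 1. Parts of the sum did differ in that band, in opposite directions. The core had a ratio of 1.05 (1.01 to 1.09), the base and lid 0.89 (0.84 to 0.93) and Psme1 with Psme2 1.21 (1.10 to 1.32). At 20000 to 40000 UMIs spleen was above, with 8296 CPM (8245 to 8347) in 385 cells against 7150 CPM (7002 to 7300) in 54 cells. Depth was not matched within this band, since no bone marrow cell passed 32029 UMIs. With every cell thinned to 3700 UMIs, the MEP ratio was 1.44. Above 40000 UMIs 351 spleen cells had 9292 CPM and bone marrow had no cells. In HSC-1, at 5000 to 10000 UMIs the sum was 4220 CPM in 2009 bone marrow cells and 4817 CPM in 968 spleen cells (ratio 1.14), smaller than over the whole cluster. At 10000 to 20000 UMIs it was 4453 CPM in 195 cells and 6116 CPM in 235 cells (1.37, 1.34 to 1.41), larger than over the whole cluster. In the deeper HSC-1 cells Psme2 measured 78.3 and 226 CPM (2.89, 2.45 to 3.42). MP differed by about the same at either depth (1.20, 1.14 to 1.26, and 1.27, 1.22 to 1.33).

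**Figure D4:**
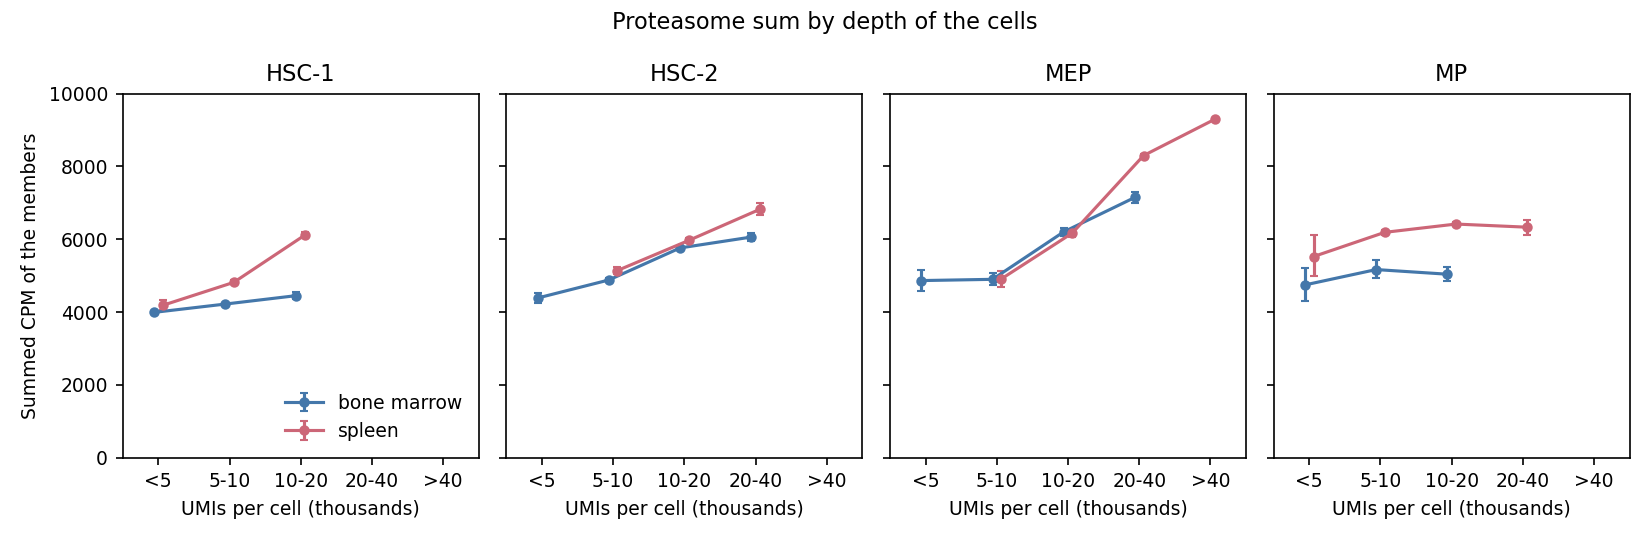
Summed CPM of the members (y axis, from 0) in cells grouped by UMIs per cell (x axis, from under 5000 to over 40000), for clusters HSC-1, HSC-2, MEP and MP, with exact 95% Poisson intervals; bands with fewer than 20 cells are left out. In MEP the lines of both libraries meet at 5000 to 20000 UMIs and part above, where no bone marrow cell passed 32029 UMIs. In MP spleen stays above bone marrow at each shared depth.

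Among clusters of the same library, MEP held the highest level of 29 of 39 members in bone marrow and of 33 of 39 in spleen. HSC-1 held the lowest level of 19 in bone marrow and 14 in spleen, and MP the lowest of 14 in spleen. The clusters were made from the same cells and genes, so these levels are a description. MEP over HSC-1 had a summed ratio of 1.49 in bone marrow (1.47 to 1.51), with 23 of 39 members at least 1.5-fold higher (19.4% of genes) and 0 lower (32.3%). In spleen the ratio was 1.70 (1.68 to 1.71), with 32 of 39 higher (25% of genes) and 0 lower (36.7%). At like depth the ratio was smaller: 1.16 (1.12 to 1.20) and 1.39 (1.36 to 1.43) in bone marrow at 5000 to 10000 and 10000 to 20000 UMIs, and 1.02 (0.97 to 1.07) and 1.01 (0.98 to 1.03) in spleen.

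Some members differed between clusters more than the sum did. Psme3 measured 33.2 CPM in HSC-1 and 107 CPM in MEP of bone marrow (ratio 3.23, 2.88 to 3.62), and 30.4 and 110 CPM in spleen (3.63, 3.24 to 4.08). Psmd7, a lid subunit, ran from 103 CPM in MP to 273 CPM in MEP of bone marrow and from 83.8 to 393 CPM in spleen. Psmb3 ran from 149 CPM in HSC-1 to 335 CPM in MEP of bone marrow and from 186 to 533 CPM in spleen. Psme1 went against that order: in spleen it was 529 CPM in HSC-1 and 368 CPM in MEP (ratio 0.70, 0.67 to 0.72), and it peaked in MP at 1162 CPM. Psmb1 was the flattest of the ring genes in bone marrow, between 262 CPM in LP and 296 CPM in HSC-2. Psmd10 was level between MEP and HSC-1 in spleen (0.93, 0.82 to 1.04), as was Psma1 in bone marrow (0.99, 0.90 to 1.09). Psmc3ip measured 29.2, 35.1 and 28.1 CPM in HSC-2, HSC-3 and MEP of bone marrow and 5.69 CPM in HSC-1. In spleen it measured 30.5, 32.9 and 31.3 CPM in the same clusters, 5.80 CPM in HSC-1 and 1.55 CPM in MP. It therefore varied most of all measured members between clusters. Its level ratio over pooled cells did not hold under other choices of cells: it was 0.29 at 5000 to 10000 UMIs, 0.61 at 10000 to 20000 UMIs, 0.68 without MEP and 1.38 without cells of other labels.

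The second deposited reference set has 3 erythroid labels, and the sum was higher from each label to the next. In bone marrow the sum was 4679 CPM in 125 cells labelled Ery-1, 6329 CPM in 131 labelled Ery-2 and 7823 CPM in 69 labelled Ery-3. In spleen it was 5324 CPM in 137, 7094 CPM in 134 and 9182 CPM in 628 cells. The median UMIs per cell went up over the same labels, from 5519 to 16710 in bone marrow and from 10502 to 41602 in spleen.

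The interferon-inducible subunits are no members and were set against the subunits they replace. Psmb8 measured 335 CPM in bone marrow and 510 CPM in spleen (ratio 1.52, 1.5 to 1.55), Psmb9 157 and 263 CPM (1.68, 1.64 to 1.71), and Psmb10 85.2 and 122 CPM (1.43, 1.38 to 1.47). Their sum over that of Psmb5, Psmb6 and Psmb7 was 1.39 in bone marrow (1.37 to 1.41) and 1.48 in spleen (1.46 to 1.5). By cluster it was lowest in MEP, 0.78 in bone marrow (0.73 to 0.83) and 0.67 in spleen (0.66 to 0.69), and highest in MP, 2.51 (2.23 to 2.82) and 2.88 (2.81 to 2.95). DCP had 1.34 (1.252 to 1.432) in bone marrow and 2.60 (2.49 to 2.72) in spleen, and HSC-1 1.48 (1.44 to 1.52) and 1.93 (1.87 to 2.0). Psme1 with Psme2 was likewise high in MP and low in MEP, with ratios to Psmb5, Psmb6 and Psmb7 of 2.17 (1.92 to 2.45) and 2.85 (2.77 to 2.92) in MP and of 0.96 (0.90 to 1.02) and 0.75 (0.74 to 0.77) in MEP. Other clusters differed from the pattern of the interferon-inducible genes. LP had 1.30 in bone marrow and 1.28 in spleen, where those genes had 1.60 and 2.04. DCP of bone marrow had 0.96, as low as MEP.

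**Figure D5:**
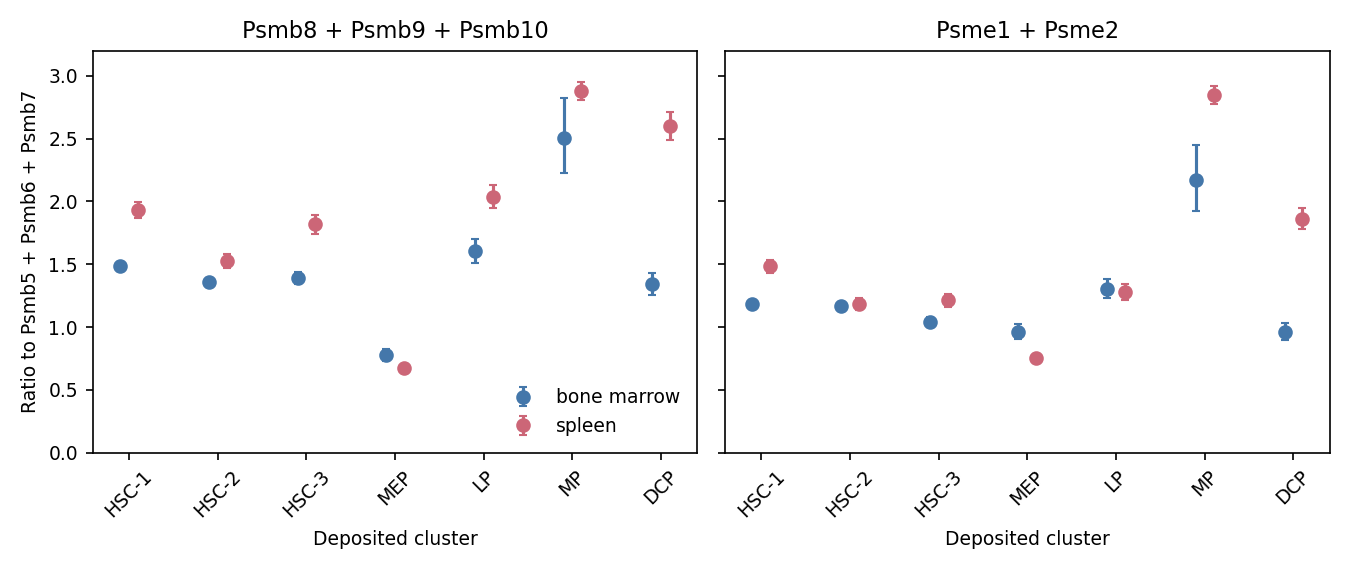
Summed CPM of Psmb8, Psmb9 and Psmb10 (left) and of Psme1 and Psme2 (right), each divided by that of Psmb5, Psmb6 and Psmb7, by deposited cluster and library, with exact 95% intervals of 2 Poisson counts. MP is highest in both libraries, MEP is lowest in spleen in both panels, and DCP differs most between the libraries on the left, 1.34 against 2.60.

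Markers of antigen-presenting cells were highest in MP of each library, as the ratios above were, but did not follow these ratios in every cluster. The list had 9 markers, all found, led in spleen by Cd74, H2-Aa, H2-Ab1 and H2-Eb1. Its summed level over all cells was 655 CPM in bone marrow and 13565 CPM in spleen. By cluster it ran from 73.9 CPM in MEP to 21020 CPM in MP in bone marrow and from 545 CPM in MEP to 48959 CPM in MP in spleen, with DCP at 435 and 36286 CPM and HSC-1 at 429 and 10326 CPM. LP had 671 and 2681 CPM, yet in spleen its ratio of interferon-inducible to standard catalytic genes was 2.04, above the 1.93 of HSC-1. In MEP the markers were higher in spleen while that ratio was lower there, 0.67 against 0.78 in bone marrow. Flt3 and Siglech of the same list went the other way over all cells. Flt3 measured 281 CPM in bone marrow and 87.8 CPM in spleen, and Siglech 0.49 and 0.19 CPM. Xcr1 was at 0 in MEP and DCP of bone marrow, and Siglech was at 0 in MEP of bone marrow and in HSC-2, HSC-3 and DCP of spleen. Cells labelled dendritic, lymphoid, mast or basophil made up 92.7% of MP, 83.8% of DCP, 82.5% of LP, 29.2% of HSC-1 and 1.12% of MEP in spleen, and 61% of MP in bone marrow. Their part in the results by cluster was not tested beyond leaving them out. Without the cells labelled dendritic, lymphoid, mast or basophil, 9976 bone marrow and 3133 spleen cells were left, and Psme1 was level over all cells (381 and 400 CPM, ratio 1.05). Psme2 stayed apart at 90.5 and 175 CPM (1.94), and in DCP, with 49 spleen cells left, the Psme1 and Psme2 sum had a ratio of 1.21 (1.07 to 1.36) in place of 2.65 (2.50 to 2.81). In HSC-1 the same sum had 1.11 (1.07 to 1.15) in place of 1.59 (1.54 to 1.64). The ratio of Psmb8, Psmb9 and Psmb10 to Psmb5, Psmb6 and Psmb7 in spleen was 0.96 without those cells. MEP alone had 0.67 in spleen, and its share of the pool rose when those cells were left out. The part of this change in makeup in the value was not tested. The sum over all members, by contrast, had a ratio of 1.54 (1.53 to 1.54) without them, with MEP as 881 of the 3133 spleen cells left. In pooled CPM the MEP cells weigh by their UMIs, with a median of 36084 per cell over all of MEP in spleen. At least 1.5-fold higher were then 25 members, where 14.1% of genes were, and 0 were lower, where 23.3% were.

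Other genes of the pathway were read from a list of partners, of which 40 were found and 38 measured. At least 1.5-fold higher in spleen were 6 of 38, and 2 were lower (Ubqln2 and Zfand5), where 10.8% of all measured genes were higher and 18.3% lower, with a median log2 ratio of 0.15. The partners' share higher was near that of all genes. Among 13 assembly factors and regulators, 3 were higher and 0 lower. Pomp, which matures the core particle, measured 171 CPM in bone marrow and 332 CPM in spleen (ratio 1.95, 1.91 to 1.99), and Adrm1, a ubiquitin receptor of the base, 41.6 and 69.3 CPM (1.67, 1.59 to 1.74). Sem1, a small lid subunit, measured 286 and 353 CPM (1.23, 1.209 to 1.253), and Psmg3, a chaperone of the alpha ring, was the third past the limit at 36.2 and 59.2 CPM (1.64, 1.56 to 1.72). None of the 6 measured transcription genes passed the limit in either direction, and their median log2 ratio was -0.29. Nfe2l1 measured 66.3 CPM in bone marrow (64.4 to 68.2) and 47.3 CPM in spleen (45.9 to 48.8), a ratio of 0.71 (0.68 to 0.74), and Nfe2l2, a related factor, was level at 78.8 and 80.9 CPM (1.03, 0.99 to 1.06).

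Every cell of the bone marrow library had a UMI of a member, and 4 spleen cells had none. The median cell held 27 member UMIs in bone marrow, 0.441% of its UMIs, and 57 in spleen, 0.561%. In MEP the medians were 0.56% in bone marrow and 0.852% in spleen, and in HSC-1 0.404% and 0.466%. In bone marrow the quartiles lay at 0.367% and 0.524% of a cell's UMIs, and in spleen at 0.445% and 0.694%. These ranges overlapped in part, with the spleen median above the upper quartile of bone marrow. In MEP the quartiles lay at 0.435% and 0.715% in bone marrow and at 0.706% and 0.955% in spleen, so those ranges barely overlapped.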

How the data were processed

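Droplet 3′ single-cell libraries of LSK cells were read from the deposited tables of raw UMI counts, 1 for bone marrow and 1 for spleen. Per the labels, the authors made these counts with Cell Ranger 3.1.0 on mm10; the submitters' processing notes name Seurat 3.1.5 and mm9, so the build is given 2 ways. The cell filter behind the tables is not given in the sources used here. Each cell's cluster and reference labels came from the authors' deposited cell information table. No doublets were called, and no cells were removed.

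Counts were summed per library and cluster and divided by the total (CPM). A gene counted as measured in a comparison if its CPM averaged 10 or more over both groups, ratios were logged on CPM + 1, and 1.5-fold was the limit for a call. Intervals are exact 95% Poisson intervals, or conditional binomial (Clopper-Pearson) intervals for a ratio of 2 counts, and cover counting error only. The ratio code was checked on simulated counts with known folds. Totals were 73740963 UMIs in bone marrow and 85937174 in spleen. Gene types and coordinates came from GENCODE M21 and promoters from RefSeq. The members, gene lists and limits were chosen with earlier results of these data known. Full values are given, by rule, for the 2 highest and 2 lowest ratios in each role group and in each cluster, for the catalytic subunits, ubiquitin receptor, deubiquitinase, chaperones and activators, and for 8 comparison genes; other members are given by ratio. Alternatives were TMM scaling (edgeR 4.0.16), centring, another denominator, weighting each cell or each cluster alike, thinning to 3700 UMIs, leaving out cells of other labels, other pseudocounts, filters and fold limits, and, chosen after seeing the data, cells of like depth, without MEP and without the activators. The cluster MCP, with 36 bone marrow cells, was left out of comparisons by cluster. Python 3.11.15, NumPy 2.4.6, SciPy 1.17.1, pandas 2.3.3, matplotlib 3.10.9 and R 4.3.3 were used.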

Additional observations from a re-analysis of the deposited data

Results flagged for a closer look

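For 6 members the libraries differed in opposite directions in different clusters, each with a counting interval clear of 1 on either side. The difference between clusters was not tested, since each library is single. Psmd5, a chaperone of base assembly, had a ratio of spleen over bone marrow of 0.556 in DCP and 1.36 in MEP. Psmc1, an ATPase, had 0.622 in MP and 1.28 in LP, and Psmc6, another ATPase, had 0.748 in MP and 1.35 in MEP. The scaffold Psmd1 had 0.771 in MP and 1.29 in MEP. The lid genes Psmd6 and Psmd11 had 0.779 and 0.783 in MP and 1.42 and 1.30 in MEP. With TMM scaling the ratios of Psmc6, Psmd1, Psmd6 and Psmd11 in MP were 1.02, 1.05, 1.06 and 1.07, while Psmc1 in MP stayed at 0.846 and Psmd5 in DCP at 0.724. MP had 118 cells in bone marrow and 1413 in spleen.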

How the results depend on the processing

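With 1 library per tissue, the spread between animals is unknown, and the intervals cover counting alone. The gap in depth limits MEP most, since bone marrow had no cells above 32029 UMIs to set beside those of spleen. No paired analysis was possible because each group has 1 library. The summed ratio stayed above 1 in each comparison under each alternative run, except in MEP at 10000 to 20000 UMIs (0.995). The causes of these changes were not tested. TMM scaling gave a summed ratio of 1.66 over all cells, 1.28 in HSC-1, 1.254 in HSC-3, 1.63 in MEP, 1.71 in MP and 1.76 in DCP, with 29 members higher and a median log2 ratio of 0.68. Centring on the median gene gave 1.55, 19 members and 0.58. A total without mitochondrial and ribosomal protein genes gave 1.43 over all cells, 1.17 in HSC-3, 1.37 in MEP, 1.19 in LP and 1.28 in DCP, and 1.59 and 1.76 for MEP over HSC-1 in bone marrow and spleen. Weighting each cell alike gave 1.28 over all cells, 1.18 in HSC-1, 1.14 in HSC-3, 1.19 in LP and 1.41 for MEP over HSC-1 in bone marrow, with 3 members higher and a median of 0.29. Thinning to 3700 UMIs, which left out 1007 bone marrow and 672 spleen cells, gave 1.31, 1.19 in HSC-1, 1.12 in HSC-3, 1.44 in MEP, 1.21 in LP and 1.39 for MEP over HSC-1 in bone marrow, with 3 members and 0.30. Weighting clusters alike gave 1.22, 1 member and 0.25. The ratio of interferon-inducible to standard catalytic genes in bone marrow and spleen was 1.45 and 1.86 with cells alike, 1.43 and 1.94 when thinned, and 1.48 and 1.83 with clusters alike. Without cells of other labels it was 0.955 in spleen, and the summed ratio was 1.54 over all cells, 1.13 in HSC-1, 1.09 in HSC-2, 1.20 in HSC-3, 1.28 in LP, 1.13 in DCP and 1.86 for MEP over HSC-1 in spleen, with 25 members and 0.61. At 5000 to 10000 UMIs, chosen after seeing the data, it was 1.15, with 1.14, 1.05 and 1.02 in HSC-1 to HSC-3, 1.00 in MEP, 1.13 in LP, 1.20 in MP and 1.48 in DCP, 1.16 and 1.02 for MEP over HSC-1 in bone marrow and spleen, 2 members higher, 1 lower and a median of 0.13. At 10000 to 20000 UMIs, likewise, it was 1.15, with 1.37, 1.04 and 1.07 in HSC-1 to HSC-3, 1.42 in LP and 1.32 in DCP, 1.39 and 1.01 for MEP over HSC-1, 2 members higher, 1 lower and 0.078. Without the activators it was 1.42, and without MEP 1.24, with 2 members and 0.22, both also chosen after seeing the data. The lower fold limit gave 32 members higher (21.4% of genes) and 1 lower (33.8%), and the 2-fold limit 1 higher (4.15%). Of all genes, 18.7% were at least 1.5-fold higher with TMM scaling, 14.5% centred, 8.5% with cells alike and 7.81% thinned. That share was 4.72% with clusters alike, 14.1% without cells of other labels and 8.35% without MEP. At 5000 to 10000 UMIs 6.87% were higher and 9.66% lower, and at 10000 to 20000 UMIs 9.15% and 16.1%. The 3 members with cells alike or thinned were near those shares. A further 42 values, among them those with other pseudocounts or filters on low levels, kept their direction and size.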
